A study of Mus musculus with 13 samples.

Results

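Junctions with 6 or more inserted bases were taken from the T cell receptor α-chain (TCRα) clonotype tables of 13 samples of rescued regulatory T (Treg) cells. A clonotype is 1 rearranged TCRα sequence of a sample. A row counted as functional when its complementarity-determining region 3 (CDR3), the loop across the joint of the V and J segments, translated without a stop codon or frameshift. The inserted part is the run of bases between the last base the deposited tables assign to V and the first they assign to J. Of 78521 functional rows in all, 5184 had 6 or more inserted bases, between 319 and 526 in each sample, while 49069 had 1 to 5 and 24214 had none (V and J parts adjoining or overlapping). The comparison group below is the rows with 1 to 5 unless another is named.

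The cells came from spleen and lymph nodes of male C57BL/6 mice with the genotype Foxp3LSL/yCd4creERT2. In these animals a removable stop cassette blocks Foxp3, the transcription factor that defines Treg cells, and a tamoxifen-inducible Cre made under the Cd4 locus can take the cassette out. Every mouse received 4-OHT (4-hydroxytamoxifen) once, at an age of 14 days, and GFP+ Treg cells were sorted 1.5 months (n = 2, age 8 weeks), 3 months (n = 4, age 3.5 months), 5 months (n = 2, age 5.5 months) or 7 months (n = 5, age 7.5 months) later. No untreated group was analysed here, TCR tables hold no markers that could check the sorted identity, and because the labels do not name the animals, p-values measure the spread between these samples. Total counts ran from 509818 to 936831 per sample, 3 counts equal between 3.40e-04% and 6.29e-04% of a sample's functional counts, and whether a count is a read or a molecule is not stated. Replicate 4 at 3 months held 54 members in common with replicate 1 at 5 months and 45 with replicate 1 at 1.5 months, the most of any pairs. Replicate 1 at 3 months followed, with 25 in common with replicate 5 at 7 months and 21 with replicate 2 at 3 months. The share of clonotypes found in another sample, by nucleotides and over all counts, is therefore also given without such libraries.

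As background, V and J segments of the Tcra locus are cut by RAG recombinase, their ends are opened and trimmed, and terminal deoxynucleotidyl transferase (TdT) adds bases without a template, the N nucleotides, before ligation. TdT favours G and C. TdT is low around birth, so fetal and neonatal receptors carry few N bases, whereas receptors made later in life carry more. A long insertion is expected to be hard to make again by chance, which is why insertion length bears on how private a receptor is.

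The first 4 junctions below carry the largest shares of functional counts among members at each time point, and the pair with exactly 6 and exactly 5 inserted bases lies on either side of the limit. All read 5′ to 3′, in lower case where the tables assign bases to V or J and in capitals for the inserted part.
TRAV4-4-DV10 with TRAJ21, 1.5 months: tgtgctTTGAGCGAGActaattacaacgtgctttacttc
TRAV7-5 with TRAJ5, 3 months: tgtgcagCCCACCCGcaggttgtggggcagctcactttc
TRAV13D-2 with TRAJ15, 5 months: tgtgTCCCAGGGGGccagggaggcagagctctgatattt
TRAV10 with TRAJ24, 7 months: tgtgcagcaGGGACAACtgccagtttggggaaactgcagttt
TRAV7-3 with TRAJ17, exactly 6: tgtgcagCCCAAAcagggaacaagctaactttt
TRAV16N with TRAJ38, exactly 5: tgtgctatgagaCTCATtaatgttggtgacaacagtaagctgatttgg

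The 4 leading junctions differ in what was inserted. The TRAV7-5 and TRAJ5 junction had a count of 2214 in replicate 3 at 3 months, or 0.354% of functional counts (95% Wilson interval 0.340 to 0.369), and 87.5% of its 8 inserted bases were G or C. The TRAV13D-2 and TRAJ15 junction in replicate 2 at 5 months had a count of 1619 and 10 inserted bases, of which 80% were G or C. In replicate 2 at 1.5 months the TRAV4-4-DV10 and TRAJ21 junction had a count of 1526, and its 10 inserted bases were 50.0% GC. The largest member of all was the TRAV10 and TRAJ24 junction of replicate 5 at 7 months, with a count of 3817 and 0.718% of functional counts (0.696 to 0.741). These intervals cover counting error only. At the limit itself, the TRAV7-3 and TRAJ17 junction with 6 inserted bases held 0.297% of counts in replicate 3 at 7 months, and the TRAV16N and TRAJ38 junction with 5 held 1.11% in replicate 5 at 7 months. Across all samples 2235 rows had exactly 6 inserted bases and 4488 had exactly 5, with median counts of 45.0 and 48.0.

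Not every long insertion is a stretch that no germline segment explains. On the GENCODE annotation of GRCm38, the build named in the submitters' processing notes, TRAJ24 lies at chr14:54195638-54195700 and TRAV9-2 at chr14:53590857-53591514, both on the plus strand. Their germline contributions to the CDR3 are shown because most of the germline matches trace to these segments, with capitals for the bases beyond the end at which the deposited tables most often stopped. The last line is the largest TRAV9-2 member, again with its inserted part in capitals.
TRAJ24 germline: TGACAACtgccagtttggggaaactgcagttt
TRAV9-2 germline: tgtGTTTTGAGCG
TRAV9-2 with TRAJ12, 7 months: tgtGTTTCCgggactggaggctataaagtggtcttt

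For TRAJ24 the deposited J part covered 25 of the 32 germline bases in 716 of 808 functional rows, and for TRAV9-2 the V part covered 3 of 13 in 251 of 254 rows. Each member was placed in 1 class only, in the order other locus, second J, short J part, own J, own V and another V, so a row that met a later definition as well is counted under the earlier. In 428 members (8.26%), 416 of them TRAJ24, the inserted part ran on into the germline of the row's own J gene by 3 or more bases. In 202 members (3.90%) it ran on in the same way into the germline of the row's own V gene. The leading junction at 7 months is of the first kind and keeps 2 inserted bases once its J end is moved to the last germline match. A further 50 members (0.965%) began with the germline of another Vα gene for at least 4 bases past their V end, and the leading junction at 1.5 months is one of them. V or J segments of another locus were named in 84 members (1.62%). The J part was shorter than 9 bases in 60 members (1.16%), of which 55 had a count of 1. In 28 members (0.540%) the inserted part held a run of 15 or more bases of a Jα transcript ahead of the J part, in 1 of them of the row's own gene (TRAJ34 before TRAJ34) and in the others of a second J gene; all are called second-J rows below. The remaining 4332 members (83.6%) had no such match.

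The last groups held the extremes of length. The longest insertion in a row with a count above 10 was 74 bases, in a TRAV3D-3 and TRAJ17 row with a count of 91 in replicate 3 at 7 months, and its inserted part held a run of TRAJ18, which lies just upstream of TRAJ17 (chr14:54200777-54200842 against chr14:54201775-54201837). A TRAJ18 run before TRAJ17 was the commonest of these pairs, with 12 of the 28 rows. In the second-J rows the median insertion was 68.5 bases and the median CDR3 37.0 amino acids, against 7.00 bases and 14.0 amino acids over all members. Of the 84 rows of other loci, 73 named a TCRδ segment, 70 of them a TRDV joined to a TRDJ. Each of the 13 samples held some of these 73 rows, whose insertions were 6 to 32 bases long. As background, TCRδ genes have D segments between V and J. Whether the insertions match them was not tested, and 24 of the 73 held a run of a Jα transcript. Only 83 functional rows in all named a TCRδ segment. A further 10 named an immunoglobulin V, none with a count above 2, and 1 named a TRBV.

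**Figure D1:**
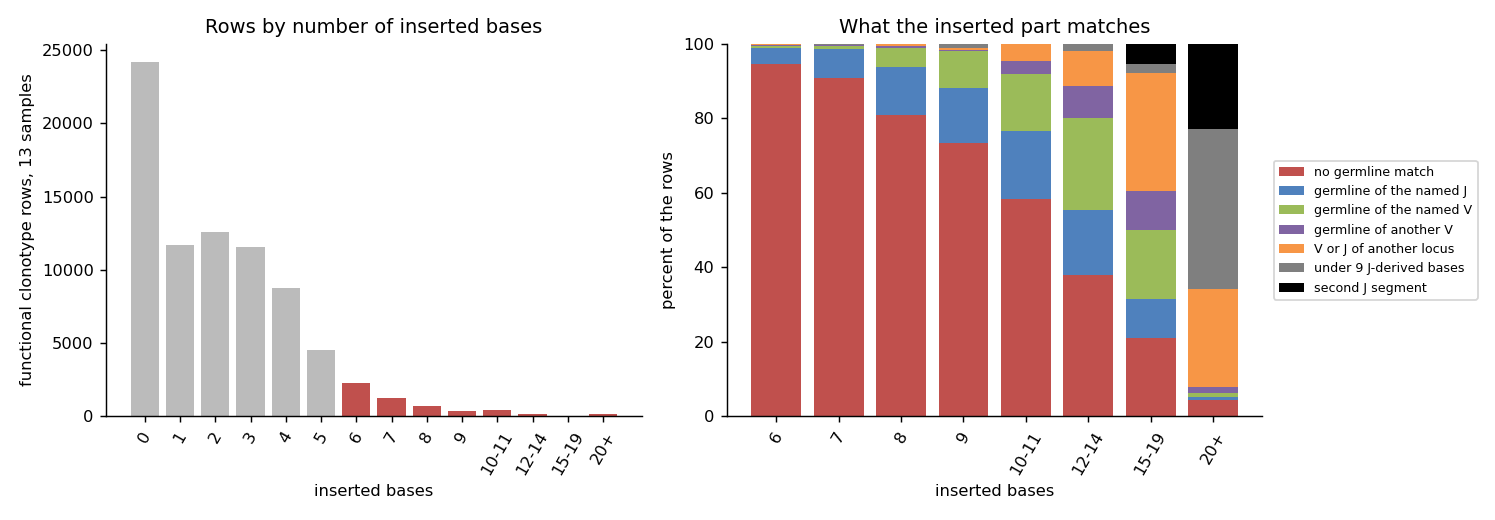
Left, the number of functional rows (vertical axis) by inserted bases (horizontal axis, grouped from 10 upwards) over 13 samples, with members in red. Right, the percent of rows of each length from 6 upwards by what the inserted part matches. Of the 2235 rows with 6 inserted bases, 2114 have no germline match, while of the 114 rows with 20 or more only 5 have none.

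The number of members dropped steeply with length. There were 2235 rows with 6 inserted bases, 1215 with 7, 660 with 8, 385 with 9, 387 with 10 or 11, 150 with 12 to 14, 38 with 15 to 19 and 114 with 20 or more. The share of rows with a count of 1 was 21.6% at 6 bases, between 21.2% and 26.2% in each class from 7 to 14, 39.5% at 15 to 19 and 67.5% at 20 or more. Because of these mixed contents, results below are given for the members as defined, for rows with a count above 10 (3388 members), and after the V and J ends were extended to the last base matching the germline of the named gene and the rows of other loci, with a second J or with under 9 J-derived bases were left out. That last set held 4317 rows with 6 or more inserted bases and is called the germline-extended set.

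The first question was whether long insertions became more or less frequent with time after 4-OHT. They made up a nearly constant share. At 1.5 months the share of functional clonotypes was 6.58% and 6.30%. At 3 months it was 7.03%, 6.65%, 6.39% and 6.61%, at 5 months 6.22% and 6.61%, and at 7 months 6.77%, 6.15%, 7.09%, 6.35% and 7.03%. All groups overlapped, and the means ± SD were 6.44 ± 0.199% (n = 2), 6.67 ± 0.267% (n = 4), 6.41 ± 0.276% (n = 2) and 6.68 ± 0.415% (n = 5). The differences from 1.5 months were 0.236 percentage points at 3 months, -0.0235 at 5 months and 0.244 at 7 months, against a pooled SD of 0.337. None exceeded the spread between samples (exact permutation over 540540 arrangements, two-sided, p = 0.737, 0.999 and 0.704 with the maximum over 3 comparisons, adjusted p = 0.999 each over 6 comparisons).

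By counts the share was lower than by clonotypes in every sample. It was 5.20% and 5.86% at 1.5 months, 5.35%, 5.56%, 4.82% and 5.12% at 3 months, 4.73% and 5.13% at 5 months, and 5.52%, 4.52%, 5.61%, 4.05% and 5.72% at 7 months. The lowest value stood at 7 months and the highest at 1.5 months, with 3 of the 5 values at 7 months inside the range at 1.5 months, and both values at 5 months lay below both at 1.5 months. Differences from 1.5 months were -0.319, -0.602 and -0.448 percentage points at 3, 5 and 7 months (exact permutation, two-sided, p = 0.837, 0.569 and 0.646, pooled SD 0.563). With months as a number, Pearson's r was 0.163 for clonotypes (p = 0.588, 100000 permutations, n = 13) and -0.270 for counts (p = 0.372), Spearman's rho was 0.150 (p = 0.621) and -0.190 (p = 0.528), and the adjusted p over the 2 shares was 0.588 for either r and 0.621 for either rho. Without the pair of samples farthest from the median month, r was 0.0261 and -0.108. With a count above 10 the members made up 5.92 ± 0.351% of clonotypes (SD, n = 13), and in the germline-extended set 5.52 ± 0.260%.

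**Figure D2:**
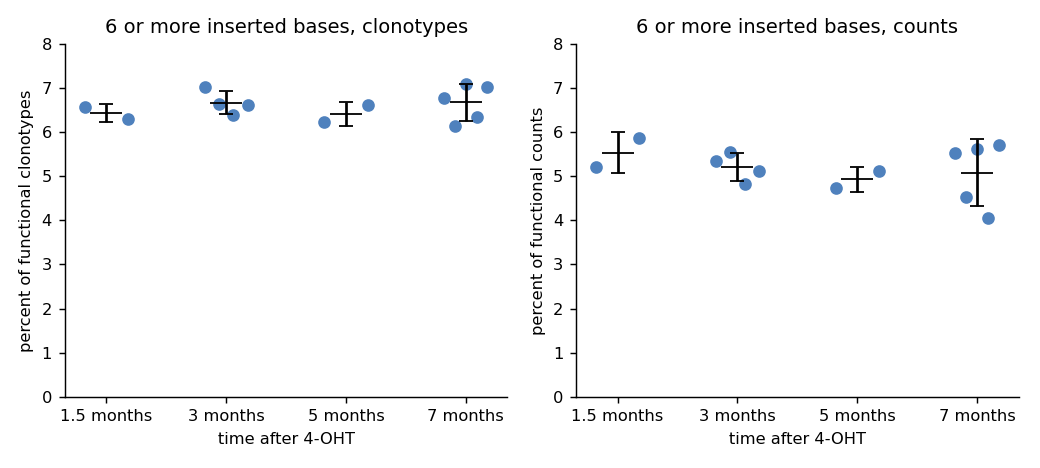
Percent of functional clonotypes (left) and of functional counts (right) with 6 or more inserted bases, by time after 4-OHT. Points are samples, and bars show the mean and SD. The points of all groups overlap for clonotypes, between 6.15% and 7.09%, while for counts, between 4.05% and 5.86%, both points at 5 months lie below both at 1.5 months.

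No other feature of the long junctions differed with time after adjustment. Over 7 measures and 3 comparisons, none of 21 reached an adjusted p of 0.05 by the exact permutation test, and the smallest was 0.511. That was the number of J-derived bases, 25.0 ± 0.254 (SD, n = 2) at 1.5 months and 24.4 ± 0.0571 (n = 4) at 3 months. Its difference of -0.586 exceeded the pooled SD of 0.202, and it was the single comparison with an unadjusted p under 0.05 (p = 0.0244, exact permutation). With ends extended and no rows left out, the smallest adjusted p over these measures was 0.0958 by the same test. Mean insertion length differed from 1.5 months by -0.00217, 0.170 and 0.182 bases at 3, 5 and 7 months.

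Long-insertion clonotypes were smaller. The mean log2 count of a long row was 4.32 ± 0.519 (SD, n = 13 samples) against 4.80 ± 0.480 for rows with 1 to 5 inserted bases. The difference within a sample ran from -0.662 to -0.295 with a mean of -0.475 ± 0.107, and it was below 0 in 13 of 13 samples (exact sign-flip permutation test, two-sided, p = 2.44e-04, the smallest this test can give, adjusted p = 2.44e-04 over 4 measures). In median counts the gap was widest in replicate 1 at 3 months, with 31.5 for long and 53.0 for short rows, and nearly closed in replicate 2 at 3 months, with 95.5 and 96.0. Over all samples together, the median count fell within the short rows as well, from 57.0 at 1 inserted base to 48.0 at 5. At 6 and at 7 bases the median was 45.0. Rows of very low count were more frequent among long rows. Rows with a count of 1 made up 24.1% of members, and per sample between 15.1% and 33.6% of long rows against 9.26% to 26% of short rows. Among rows with a count above 10 the mean difference was -0.0958 ± 0.0950, lower in 11 of 13 samples (adjusted p = 0.00562, exact sign-flip test), and in the germline-extended set at that count it was -0.0670 ± 0.0940 (adjusted p = 0.0278). This limit cuts off the low end of the count that is compared, so the smaller difference does not show where the gap lay. Of 1229 functional rows above 0.1% of their sample's functional counts, 59 were members (4.80%), 690 had 1 to 5 inserted bases (56.1%) and 480 had none (39.1%). Each of the 13 samples held at least 1 of these 59 members. Members made up 6.60 ± 0.316% of all functional rows (SD, n = 13), and the 2 shares were not tested against each other.

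Base composition depended on which bases were counted as inserted. As deposited, the insertions of members were 66.7 ± 0.962% GC and those of 1 to 5 bases 69.7 ± 0.638% (SD, n = 13). The difference was -2.99 ± 1.06 percentage points and negative in 13 of 13 samples, from -5.28 to -0.740 (exact sign-flip test, two-sided, adjusted p = 2.44e-04). With a count above 10 the difference was -1.45 ± 1.09 (adjusted p = 3.26e-04). In the germline-extended set the sign turned, with 72.2 ± 1.04% for long and 69.8 ± 0.683% for short insertions, a difference of 2.38 ± 1.10 points that was positive in 13 of 13 samples (adjusted p = 2.44e-04). When the first and last inserted base of each row were also left out of that set, the difference was negative, with 72.8 ± 1.31% against 75.3 ± 0.876%. Rows with 1 or 2 inserted bases have no inner base, so the short group of this comparison held only rows with 3 to 5. Among short rows, the lengths left out had the lowest GC. Whether leaving them out turned the sign was not tested.

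The low values lay in some groups of members. Pooled over samples, GC was 72.5% in the 4332 rows without a germline match, 53.3% where the insertion ran on into the row's own J germline, 43.8% where it ran on into the V germline, 48.8% where it began with another V germline, 52.5% in rows of other loci, 50.3% with a second J and 47.9% with under 9 J-derived bases. By length, GC as deposited was 63.7 ± 1.72% (SD, n = 13) for single inserted bases, 71.5 ± 1.06% at 5 bases, 70.8 ± 1.57% at 6, 71.9 ± 1.77% at 7, 65.8 ± 3.45% at 9 and 57.9 ± 4.49% at 12 to 14. In the germline-extended set it was 72.0 ± 1.11% at 5, 72.0 ± 1.55% at 6, 74.2 ± 1.67% at 7 and 65.3 ± 6.65% at 12 to 14. GC thus rose from 1 to 4 bases in both sets, and between 5 and 6 bases it differed by less than 1 SD.

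**Figure D3:**
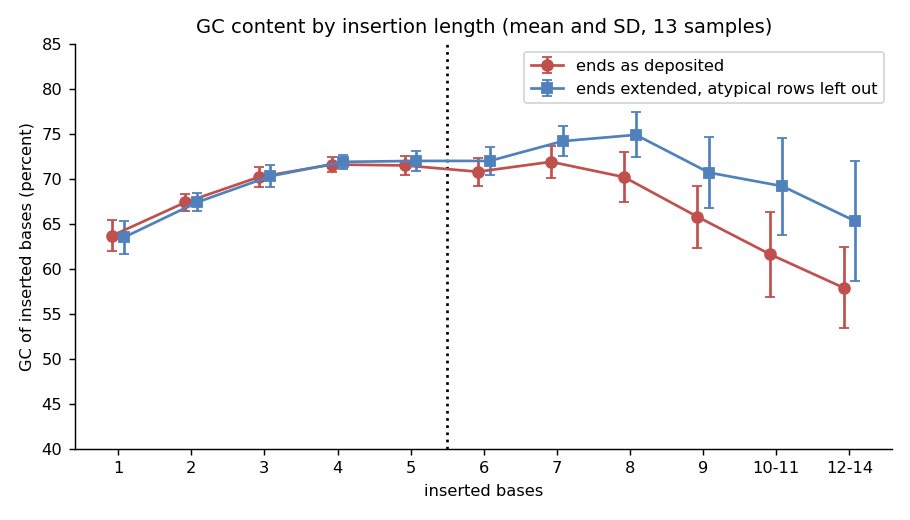
GC content of the inserted bases in percent (vertical axis) by number of inserted bases (horizontal axis), mean and SD over 13 samples, with ends as deposited (red) and in the set with extended ends and without rows of other loci, with a second J or with under 9 J-derived bases (blue). The dotted line marks the limit between 5 and 6. Both curves rise from 1 to 4 bases, and the red one falls to 57.9% at 12 to 14 bases.

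Longer insertions went with more trimming of both segments. Since insertion length and the V and J ends are parts of the same CDR3, these values are a description with no test. The CDR3 of members was 14.2 ± 0.110 amino acids long against 13.5 ± 0.0298 in short rows (SD, n = 13). Members kept 10.1 ± 0.181 V-derived and 24.6 ± 0.264 J-derived bases, short rows 11.8 ± 0.0563 and 26.2 ± 0.0559. Against the annotated germline, members lacked 3.51 ± 0.138 V bases and 4.70 ± 0.202 J bases, and short rows 1.89 ± 0.0608 and 2.98 ± 0.0645. In the germline-extended set the members lacked 3.28 ± 0.153 V and 4.27 ± 0.150 J bases. Between 14.3% and 18.5% of long rows in a sample kept the whole germline V end, against 32.4% to 35.5% of short rows. CDR3s of 16 or more amino acids made up 12.2% to 18.6% of long rows per sample and 4.64% to 6.68% of short rows.

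V and J use was compared on clonotype numbers with edgeR's quasi-likelihood test, with the sample as a block. The deposited V and J ends define the members. Calls that rest on segments whose deposited end mostly stops short of the germline, such as TRAV9-2 and TRAJ24, are not independent of that definition. Of 20 V families tested, 4 differed at an adjusted p under 0.05 (20%), 2 higher and 2 lower in members. TRAV9, a family of 11 annotated genes between chr14:52792316-53676630, made up 8.61 ± 1.87% of long rows and 4.64 ± 0.915% of short rows (SD, n = 13), higher in 13 of 13 samples (log2 fold change 1.00 ± 0.09 SE, adjusted p = 2.40e-17). Of the 254 functional rows of TRAV9-2, 217 were members (85.4%), or 28 (11%) with extended ends, and in the germline-extended set TRAV9 held 4.49 ± 1.52% of long and 4.93 ± 0.901% of short rows (log2 fold change -0.18 ± 0.12, adjusted p = 0.422). The other higher family, TRDV1 of the TCRδ locus, counted 61 members and 6 short rows (log2 fold change 6.11 ± 0.49, adjusted p = 7.05e-20). TRAV16 was lower, at 1.26 ± 0.429% of long against 2.40 ± 0.212% of short rows in 13 of 13 samples (log2 fold change -0.81 ± 0.16, adjusted p = 1.36e-05). TRAV4 was lower as well, at 7.59 ± 1.52% against 9.73 ± 0.742% (log2 fold change -0.26 ± 0.08, adjusted p = 0.0122). TRAV16 and TRAV4 were the families called in the germline-extended set, where 2 of 19 passed (10.5%), with log2 fold changes of -1.0 ± 0.16 and -0.28 ± 0.08. Above a count of 10, 4 of 19 families passed (21.1%).

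Among J genes, 8 of 44 tested differed by edgeR at an adjusted p under 0.05 (18.2%), 6 higher and 2 lower. With library totals in place of TMM scaling, which moved the J genes by a median of -0.19 (log2), 14 passed, 5 higher and 9 lower. TRAJ24 led. It made up 8.94 ± 1.68% of long rows, from 6.88% to 11.8% per sample, against 0.525 ± 0.110% of short rows (log2 fold change 4.29 ± 0.14 SE, adjusted p = 1.09e-37). Since its deposited J part covered 25 of 32 germline bases in 716 rows, this call is not independent of the definition of a member. Of the 808 functional rows of TRAJ24, 470 were members (58.2%). With extended ends 63 remained members (7.80%), TRAJ24 held 1.47 ± 0.572% of long and 1.03 ± 0.190% of short rows, and the log2 fold change was 0.47 ± 0.22 (adjusted p = 0.181). TRDJ1, a TCRδ segment, counted 73 members and 5 short rows (log2 fold change 6.64 ± 0.39, adjusted p = 1.12e-23). TRAJ47 made up 1.53 ± 0.771% of long against 0.691 ± 0.160% of short rows (log2 fold change 1.35 ± 0.24, adjusted p = 5.52e-06), and 0.83 ± 0.26 remained in the germline-extended set (adjusted p = 0.0177).

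TRAJ5 and TRAJ12 were the J genes called lower in members as deposited over all counts. TRAJ5 made up 0.259 ± 0.253% of long and 0.757 ± 0.202% of short rows, lower in 13 of 13 samples (log2 fold change -1.27 ± 0.38 SE by edgeR, adjusted p = 0.0101), and 14 of its 674 rows were members (2.08%), the smallest share among J genes with 100 or more rows. TRAJ12 made up 2.43 ± 1.42% against 3.78 ± 0.408%, lower in 11 of 13 samples (log2 fold change -0.50 ± 0.16, adjusted p = 0.0171), and passed no longer without replicate 2 at 1.5 months (adjusted p = 0.0632), replicate 2 at 3 months (0.0583) or replicate 3 at 3 months (0.0576). Both were lower in the germline-extended set, at log2 fold changes of -1.56 ± 0.40 and -0.66 ± 0.17 (adjusted p = 0.00471 each), where 7 of 43 J genes passed (16.3%). TRAJ32 was also called lower there (adjusted p = 0.0343 by edgeR), while TRAJ30, TRAJ37, TRAJ45 and TRAJ47 were higher. Above a count of 10, 11 of 44 passed (25.0%). TRAJ31, TRAJ7 and TRAJ15 were then lower beside TRAJ12 and TRAJ5 (adjusted p = 0.00153, 0.00284 and 0.0111 for the first 3 by edgeR). The others called at that count, TRAJ24, TRDJ1, TRAJ47, TRAJ30, TRAJ37 and TRAJ45, were higher. Near-identical V gene copies cannot be told apart with certainty in such tables, which is why families were tested.

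**Figure D4:**
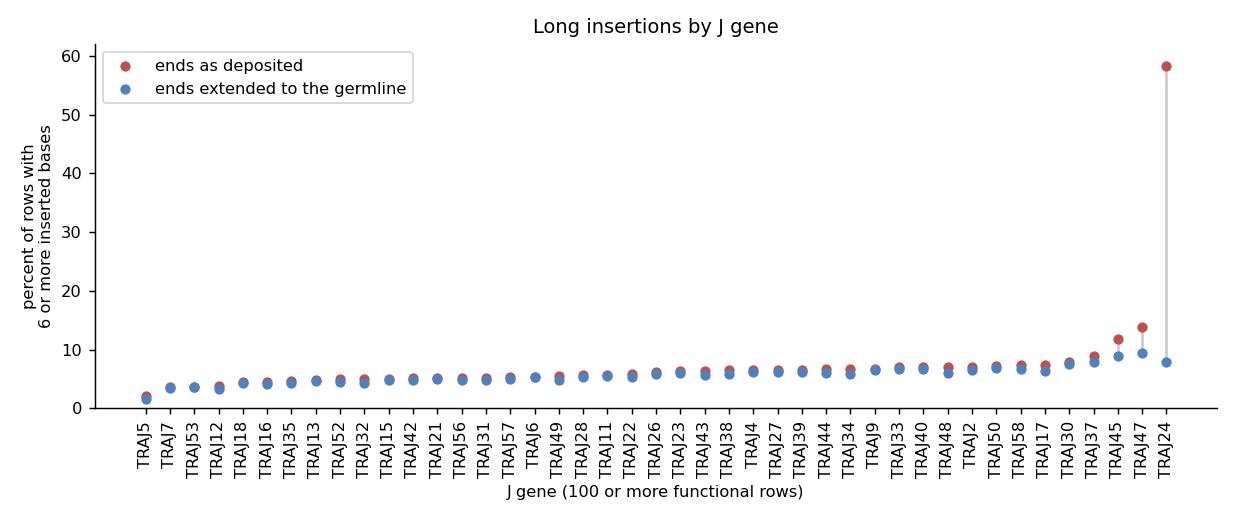
Percent of functional rows with 6 or more inserted bases (vertical axis) for each J gene with 100 or more functional rows (horizontal axis), pooled over 13 samples, with ends as deposited (red) and extended to the germline without rows holding a second J or under 9 J-derived bases (blue). TRAJ24 drops from 58.2% to 7.80%, while TRAJ5 is lowest at 2.08%.

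With time, no V family (0 of 11 tested, 0%) and no J gene (0 of 23, 0%) of the long junctions differed between 7 and 1.5 months by edgeR at an adjusted p under 0.05, nor between 7 and 3 months (0 of 11 and 0 of 23). Unadjusted p fell under 0.05 for 2 families and 2 J genes against 1.5 months and for 2 and 3 against 3 months, and DESeq2 called 0 and 0 against 1.5 months. The smallest p among J genes belonged to TRAJ12, which made up 1.33% and 1.22% of members at 1.5 months, 1.80%, 1.32%, 1.53% and 2.05% at 3 months, 2.09% and 2.51% at 5 months, and 3.21%, 2.30%, 1.50%, 5.62% and 5.10% at 7 months. Every value at 7 months lay above those at 1.5 months (log2 fold change 1.42 ± 0.48 SE by edgeR's quasi-likelihood test, not a permutation test, p = 0.00370, adjusted p = 0.0852). TRAJ12 passed without replicate 3 at 7 months (adjusted p = 0.0169 by edgeR). In all alternatives that left out a sample, its log2 fold change ran from 1.14 to 1.61. Over all J genes tested, the smallest adjusted p by edgeR was 0.675 without replicate 4 at 7 months and 0.635 without replicate 5. It was 0.513 above a count of 10, 0.269 in the germline-extended set and 0.368 by DESeq2. TRAV12 had the smallest p among families, with 10.2 ± 0.751% of members at 1.5 months and 13.5 ± 2.34% at 7 months (log2 fold change 0.40 ± 0.15, adjusted p = 0.118). TRAJ24 gave between 6.88% and 11.8% of members, with high and low samples at each of 3 and 7 months.

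The residues encoded by long junctions differed from those of short ones. The definition sets how many CDR3 bases lie outside the V and J parts, so the residues are not independent of it. As deposited, TRAJ24 also made up 8.94 ± 1.68% of long and 0.525 ± 0.110% of short rows. How much of the residue differences goes with either was not tested. Over the CDR3 without its first and last 3 residues, 17 of 20 amino acids differed at an adjusted p under 0.05 (85%, exact sign-flip test over 13 samples). Leucine made up 3.24 ± 0.345% of residues in members and 1.53 ± 0.0665% in short rows (SD, n = 13), glycine 20.9 ± 0.752% against 19.2 ± 0.193%, and proline 3.34 ± 0.195% against 1.76 ± 0.0856%, each higher in 13 of 13 samples. Threonine was higher as well, at 7.37 ± 0.452% against 6.29 ± 0.124% in 12 of 13 samples. Asparagine fell from 14.5 ± 0.201% in short rows to 11 ± 0.614% in members, serine from 14.5 ± 0.197% to 12.4 ± 0.733%, tyrosine from 6.06 ± 0.107% to 4.60 ± 0.339% and glutamine from 3.63 ± 0.112% to 2.83 ± 0.294%. The adjusted p was 5.43e-04 for each of these but threonine (8.14e-04) by the exact sign-flip test. Lysine, outside the 4 largest differences, made up 9.30 ± 0.314% against 8.28 ± 0.118% and was higher in 13 of 13 samples.

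In the germline-extended set 15 of 20 amino acids passed (75.0%). Glycine (2.61 ± 1.00 percentage points above short rows) and proline (1.99 ± 0.265) led the higher ones, and leucine was 0.788 ± 0.340 above. Threonine turned to -0.282 ± 0.501 (adjusted p = 0.0854, exact sign-flip test). Asparagine, serine and tyrosine remained lower, by -2.49 ± 0.892, -2.27 ± 0.869 and -0.959 ± 0.382 points. Of the basic residues, arginine and lysine were 1.16 ± 0.638 and 0.460 ± 0.485 points higher there, lysine no longer above a count of 10 (0.269 ± 0.476, adjusted p = 0.0872, exact sign-flip test), and histidine differed by 0.0113 ± 0.160 (adjusted p = 0.802). Alanine turned from 0.297 ± 0.449 points as deposited (adjusted p = 0.0451, exact sign-flip test) to -0.333 ± 0.479 (adjusted p = 0.0326). Above a count of 10 alanine differed by 0.649 ± 0.595 as deposited (adjusted p = 0.00244, exact sign-flip test). In the germline-extended set at that count it no longer passed (-0.153 ± 0.528, adjusted p = 0.346). With ends as deposited and a count above 10, 17 of 20 passed (85%). In the germline-extended set at that count, threonine, alanine, methionine, histidine, valine, isoleucine and lysine did not pass.

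Long junctions were shared between samples less often than short ones. The junctions below are members found in 4 samples, the most for any member, and are shown with their inserted part in capitals.
TRAV4-4-DV10 with TRAJ27: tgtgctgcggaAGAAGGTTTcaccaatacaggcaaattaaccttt
TRAV6-6 with TRAJ24: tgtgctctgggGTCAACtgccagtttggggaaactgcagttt

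On average 12.2 ± 6.90% of the long clonotypes of a sample, defined by V, J and CDR3 nucleotides, were also found in another sample, against 20.2 ± 4.75% of the short ones (SD, n = 13). The difference of -7.95 ± 2.37 points was negative in 13 of 13 samples (exact sign-flip test, two-sided, adjusted p = 2.44e-04). Values ran from 3.84% in replicate 3 at 3 months to 27.7% in replicate 4 at 3 months and 23.6% in replicate 1 at 5 months, the pair that held 54 members in common. Without replicate 1 at 1.5 months, replicate 4 at 3 months and replicate 1 at 5 months, the long and short shares were 7.51 ± 3.61% and 14.6 ± 2.29%, a difference of -7.14 points (exact sign-flip test, p = 0.00195), and without replicate 1 at 3 months as well 4.70 ± 1.16% and 11.9 ± 1.11%, a difference of -7.24 (p = 0.00391). With clonotypes defined by their CDR3 amino acids, the shares over 13 samples were 24.7 ± 7.32% and 58.9 ± 2.92%, a difference of -34.2 points (exact sign-flip test, p = 2.44e-04). Overlaps between samples are not independent of each other, which the test does not take into account.

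Most of this sharing lay in low counts. Of 4844 distinct members, 308 were found in 2 or more samples, and of their 340 further occurrences beside the largest, 320 had a count of 10 or less. The TRAV4-4-DV10 and TRAJ27 junction had a count of 1425 in replicate 1 at 7 months and of at most 1 in 3 other samples. The TRAV6-6 and TRAJ24 junction had 1300 in replicate 2 at 1.5 months and at most 68 elsewhere. Its inserted part ran on into its own J germline, and it keeps 2 inserted bases with extended ends. Another member found in 4 samples was an immunoglobulin κ row with a count of at most 2. With a count above 10 on both sides, 1.13 ± 0.400% of long and 12.3 ± 0.869% of short clonotypes were shared, a difference of -11.2 ± 0.916 points, negative in 13 of 13 samples (adjusted p = 3.26e-04, exact sign-flip test). That left 18 members shared, 8 of them running on into their own J germline, 1 into its V germline, 4 of other loci and 5 without a match. In the germline-extended set it was 0.294 ± 0.353% of long clonotypes with a count above 10 on both sides, and 11.7 ± 7.42% with all counts. By length the percent of rows found elsewhere with a count above 10 was 23.3% at 1 inserted base, 8.78% at 3, 1.45% at 5, 1.44% at 6, 0.245% at 7, 0.957% at 8, 0% at 9, 2.33% at 10 or 11, 2.30% at 12 to 14, 0% at 15 to 19 and 6.90% at 20 or more (29 rows). With all counts it was 28.6% at 1 base, 18% at 3 and 11.6% at 5, then 12.6% at 6, 13.1% at 7, 13.3% at 8 and 15.1% at 9, and lower at 11.1% for 10 or 11 bases, 4.00% for 12 to 14, 5.26% for 15 to 19 and 9.65% for 20 or more. Whether the low-count sharing is carry-over between libraries was not tested.

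**Figure D5:**
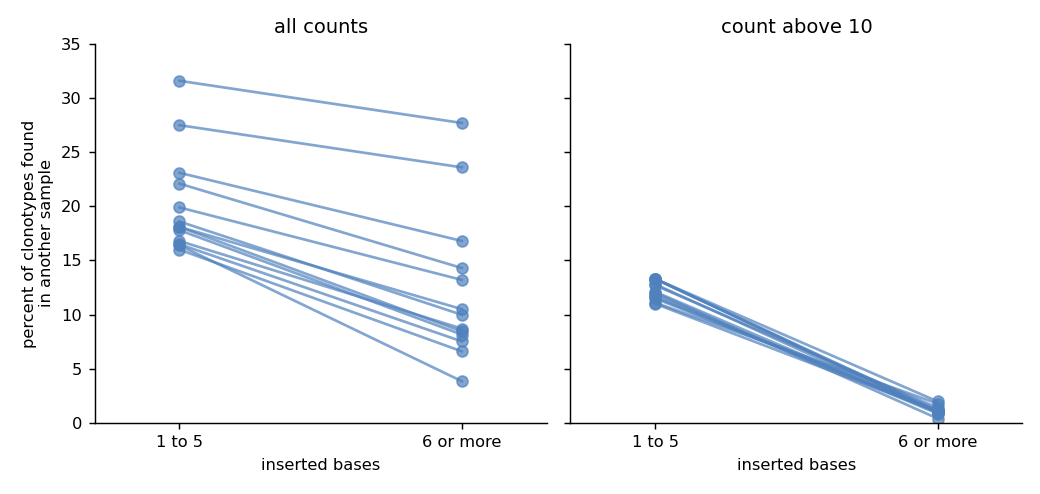
Percent of the clonotypes of a sample found in at least 1 other sample (vertical axis) for 1 to 5 and for 6 or more inserted bases, for all counts (left) and for counts above 10 in both samples (right). Each line is 1 of 13 samples. All lines fall, and on the right the long clonotypes lie between 0.394% and 1.97%.

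Non-functional rows, whose receptor cannot reach the cell surface, held long insertions more often than functional ones. In them 9.74 ± 1.05% of rows had 6 or more inserted bases, against 6.60 ± 0.317% of functional rows with a V end (SD, n = 13). The difference was -3.14 ± 1.06 points, from -5.80 to -1.91, negative in 13 of 13 samples (exact sign-flip test, two-sided, adjusted p = 2.44e-04). With a count above 10 it was -2.47 ± 1.33, and in the germline-extended set -3.03 ± 1.03, both negative in 13 of 13 samples. Only out-of-frame rows gave 9.59 ± 1.02% and a difference of -2.98. Each sample held 716 to 1142 non-functional rows, so its share rests on 68 to 121 long ones.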

How the data were processed

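TCRα transcripts of sorted GFP+ Treg cells were amplified by 5′ RACE, and the authors assembled clonotypes with MiXCR and corrected them with VDJtools. The paper describes a further step that discarded clonotypes with a stop codon or frameshift. The deposited tables still held such rows, which are the non-functional rows used here. For each clonotype the deposited tables give a raw count, its share of the sample as a fraction (not used in tests) and the 0-based positions of the V and J ends in the CDR3. Counts were used as deposited, and the samples were grouped by the time point in their titles. Members, lists and tests were chosen with earlier results of these data known. Named segments were up to 3 per direction with the smallest adjusted p under 0.05, or else the 1 with the smallest p. Named amino acids were the 4 largest differences per direction among those with an adjusted p under 0.05. Named clonotypes were the largest long row of each time point, the 3 found in most samples (ties by mean share), the row with most inserted bases above a count of 10, and the largest rows with 6 and with 5. The largest TRAV9-2 member was chosen after its values were seen.

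Germline ends came from GENCODE M21 transcripts of GRCm38, matched for 105 of 116 V and 44 of 47 J names. Shares and tests were computed in Python 3.11.15 (scipy 1.17.1, pandas 2.3.3, numpy 2.4.6), the latter as exact permutations over 540540 arrangements of the samples by time or 8192 sign flips within samples, and for trends 100000 random permutations. V and J use was tested with edgeR 4.0.16 (filterByExpr, TMM) in R 4.3.3, with DESeq2 1.42.0 as an alternative. SEs of log2 fold changes were derived from edgeR's F statistic. p-values were adjusted by Benjamini-Hochberg. The scripts were tested on simulated data. Alternatives covered count limits, other insertion limits, equal depth, loci and left-out samples.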

Additional observations from a re-analysis of the deposited data

How the results depend on the processing

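Low counts and the placing of the V and J ends limit these results, and groups of 2 limit the comparisons with 1.5 and 5 months. The extended ends, the germline-extended set and the sets without 3 or 4 libraries were chosen after seeing the data. The cause of the changes below was not tested, except where rows were left out.

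The GC difference was -0.524 percentage points with extended ends alone (adjusted p = 0.160, exact sign-flip test), 2.38 in the germline-extended set and 2.82 there with a count above 10. As inner bases only (short rows of 3 to 5) it was -9.71 as deposited and -2.56 in the germline-extended set, and with insertions from 9 bases -11.2. Clone size, sharing and the functional share kept direction and threshold in all alternatives run, but the sharing difference was -34.2 for amino-acid clonotypes. The clone-size difference of -0.475 shrank to -0.0958 above a count of 10, with 2 samples higher. In the germline-extended set at that count it was -0.0670, with 3 samples higher. TRAV9 had log2 fold changes of -0.18, -0.18 and -0.19 and threonine differences of -0.241, -0.282 and -0.412 in the 3 extended settings, alanine turned from 0.297 to -0.404, -0.333 and -0.153 in them, and TRAJ24 -0.06 in the last. V families called went from 4 to 2 in the germline-extended set and 1 there above a count of 10, while 11 of 77 single V genes (14.3%) were called, and J genes from 8 to 14 with library totals only (5 higher, 9 lower) and 13 without a filter.

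By time, the 5-month clonotype difference of -0.0235 turned to 0.0811 with a count above 10, 0.190, 0.128 and 0.254 in the 3 extended settings, 0.0320 at equal depth and 0.0431 as a share of rows with an insertion, and the 7-month count difference to 0.470 with insertions from 5 bases. None of these passed the threshold. Blocked by replicate number, the differences at 7 months were 0.177 for clonotypes (p = 0.907, exact permutation) and -0.439 for counts (p = 0.725), trends had r of 0.0114 and -0.414, and 0 families and 0 J genes were called. Same-numbered samples correlated at -0.173 and -0.244 over 14 pairs, so the numbers were not taken to pair samples.

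Leaving out each sample in turn, the 5-month clonotype difference ran from -0.218 to 0.171, the 3-month count difference from -0.647 to 0.00829, V families called from 4 to 5, J genes from 7 to 10, and calls at 7 against 1.5 months from 0 to 1 for families (1 without replicate 1 at 1.5 months) and 0 to 1 for J genes. Where this leaves a group with 1 sample, that sample is assumed to vary like the others.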
